A study of Mus musculus with 4 samples.

Results

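The genes described here are the amyloid precursor protein gene App, its relatives Aplp1 and Aplp2, the presenilin gene Psen2 and the prion protein gene Prnp. They were measured in differentiated neural precursor cultures of APPswe/PS1dE9 mice, a model of familial Alzheimer's disease, and of wild-type (WT) mice. The members are all non-control probes whose RefSeq accession belongs to one of these genes, which gave 5 probes, 1 for each gene, of 55681 on the array. They cover 15 of 59305 spots, with 10 spots for Prnp, 2 for App and 1 each for Aplp1, Aplp2 and Psen2. All 5 probes were well above background in both genotypes on 4 of 4 arrays.

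APPswe/PS1dE9 cultures carry the APPswe and PS1dE9 transgenes, the first an APP with the Swedish mutation, and WT cultures carry neither. Cells of both genotypes were taken from embryonic day 13 telencephalon on a C57BL/6 background, expanded 5 days as neurospheres with EGF and FGF2, and then left to differentiate 7 days on a coated surface once these factors were withdrawn. Each of 4 2-colour arrays held RNA of 1 APPswe/PS1dE9 and 1 WT culture, where replicates 1 and 2 carried APPswe/PS1dE9 as Cy3 and replicates 3 and 4 carried it as Cy5. The labels give no line number and no promoter for the transgenes. In the widely used line of this name, as background, both transgenes, of which the APP one has a humanised amyloid sequence, are driven by the mouse Prnp promoter. The labels do not say whether cultures came from separate embryos, litters or pools. The p-values therefore reflect only how these 4 arrays vary, and part of that may be technical.

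APP is a membrane protein of neurons and glia that is cut by secretases. Beta-secretase followed by gamma-secretase releases the amyloid-beta peptide, whereas alpha-secretase cuts within that sequence. APLP1 and APLP2 are cut by the same enzymes but hold no amyloid-beta sequence, and presenilins are the catalytic subunits of gamma-secretase. The prion protein is a lipid-anchored surface glycoprotein, abundant in neurons and glia, that can bind amyloid-beta oligomers. The Swedish mutation lies beside the beta-secretase site and favours that cut.

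The promoters of 3 members are shown because Prnp and Psen2 had the largest fitted ratios of the 5 genes, because the Prnp promoter drives the transgenes in the line named above, and because App is the gene that the APP transgene copies. They are the 250 bases before an annotated start in RefSeq on GRCm38.p6, at chr2:131909678-131909927 on the plus strand for Prnp, chr1:180256301-180256550 on the minus strand for Psen2 and chr16:85173708-85173957 on the minus strand for App, and capitals mark the GC box GGGCGG on either strand.
Prnp: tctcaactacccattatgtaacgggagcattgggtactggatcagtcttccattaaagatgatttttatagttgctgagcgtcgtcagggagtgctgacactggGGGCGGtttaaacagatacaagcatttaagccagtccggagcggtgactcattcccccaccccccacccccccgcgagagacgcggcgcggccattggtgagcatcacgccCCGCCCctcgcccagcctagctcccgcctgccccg
Psen2: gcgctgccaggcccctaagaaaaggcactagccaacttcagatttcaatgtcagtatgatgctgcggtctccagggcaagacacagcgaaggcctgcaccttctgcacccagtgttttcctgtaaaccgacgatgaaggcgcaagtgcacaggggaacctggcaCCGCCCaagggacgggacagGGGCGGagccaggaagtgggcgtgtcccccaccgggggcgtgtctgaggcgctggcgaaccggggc
App: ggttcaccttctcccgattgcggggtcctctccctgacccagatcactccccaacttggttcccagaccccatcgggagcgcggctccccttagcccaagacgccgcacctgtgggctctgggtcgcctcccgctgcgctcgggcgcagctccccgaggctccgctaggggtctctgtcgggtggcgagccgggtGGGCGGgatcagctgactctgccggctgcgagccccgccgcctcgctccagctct
The Prnp window held 2 GC boxes, 2 CCAAT boxes and 1 TATAAA, with no overlap among them. The Psen2 window held 2 GC boxes and the App window 1, with no CCAAT and no TATAAA in either. Of 2 Psen2 windows in the promoter table the one further upstream is shown, and the annotated gene spans of Psen2 and App reach beyond the windows printed here. Aplp2, on chromosome 9, had 3 GC boxes and 2 CCAAT, and Aplp1, on chromosome 7, had 1 GC box. Of 32851 promoter windows of the same length, read on both strands, 32.7% held GGGCGG, 33.8% held CCAAT and 12.4% held TATAAA. These counts describe letters and not bound sites.

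In each channel 47.5% to 59.6% of spots exceeded background clearly, and 0 were saturated. The cultures of an array were not always of the same sex. On replicate 1 the X-inactivation gene Xist was well above background in the WT culture alone and the Y-linked Eif2s3y in the APPswe/PS1dE9 culture alone. Replicate 3 had the reverse, with Xist in APPswe/PS1dE9 and Eif2s3y in WT, and replicates 2 and 4 had Xist in both cultures and Eif2s3y in neither. Replicates 2 and 4 are called same-sex arrays below. Since the sexes differed, the cultures of a genotype did not all come from the same embryo, but how many embryos or litters were used is not known. Across all probes above background, Spearman correlations of the genotype ratio were 0.54 and 0.46 between arrays of the same dye orientation, and 0.10 to 0.25 between arrays of opposite orientation.

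Prnp had the highest fitted ratio of the 5 genes, and Psen2 was the member that passed the test. Prnp was 1.68-fold higher in APPswe/PS1dE9 cultures (log2 ratio 0.75 ± 0.20, SE, n = 4 arrays), and Psen2 was 1.25-fold higher (0.32 ± 0.06). Aplp2 was at 0.23 ± 0.07, App at 0.12 ± 0.06 and Aplp1 at 0.04 ± 0.07. In limma's fit over 26882 probes, adjusted p was 0.0329 for Psen2, 0.0717 for Prnp, 0.0993 for Aplp2, 0.296 for App and 0.809 for Aplp1, at a threshold of 0.05. That is 1 of 5 members higher and 0 lower, where 6.89% of all probes tested were higher and 1.90% lower, or 8.79% in either direction. With median centring in place of loess, 1567 probes were higher and 1689 lower, against 1851 higher and 512 lower with loess. The median log2 ratio of all probes tested was 0.0059 with loess and -0.073 with median centring.

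**Figure D1:**
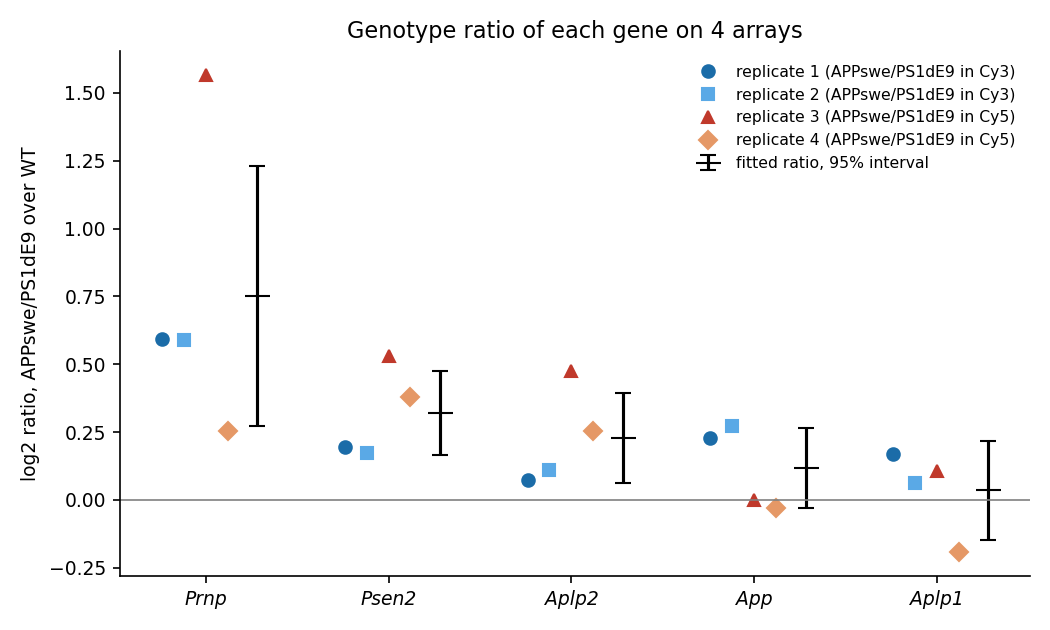
Log2 ratio of APPswe/PS1dE9 over WT (vertical axis) for the 5 genes on each of 4 arrays, coloured points, with the fitted ratio and its 95% interval in black. Prnp lies at 1.57 on replicate 3 and between 0.25 and 0.59 on the other arrays, while App lies above 0.2 on the arrays with APPswe/PS1dE9 in Cy3 and near 0 on the other arrays.

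Prnp is on chromosome 2. Its normalised log2 signal was 14.11, 14.14, 14.97 and 13.91 in the APPswe/PS1dE9 cultures of replicates 1 to 4, against 13.51, 13.55, 13.40 and 13.66 in the WT cultures. Every APPswe/PS1dE9 culture was above every WT culture, and the APPswe/PS1dE9 culture of replicate 3 stood highest. Such a separation upwards was found in 7.20% of all probes and downwards in 4.45%. The means were 14.28 ± 0.47 in APPswe/PS1dE9 and 13.53 ± 0.11 in WT (SD, n = 4 each), so the spread was wider among the APPswe/PS1dE9 cultures. The ratios on the 4 arrays were 0.59, 0.59, 1.57 and 0.25, above 0 on 4 of 4 arrays, as in 15.6% of all probes. The 95% interval of the fitted ratio, which is not adjusted for the number of probes, ran from 0.27 to 1.23, or 1.21-fold to 2.34-fold.

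The Prnp spots of an array lay closer together than the arrays did. On replicate 3 its 10 spots lay between 1.43 and 1.65, and on replicate 4 between 0.18 and 0.33. On replicate 1 they lay between 0.47 and 0.72, and on replicate 2 between 0.48 and 0.69. The SD of spots within an array was 0.067 after pooling the 4 arrays, against an SD of 0.57 between the array means. Before any correction the spots of replicate 3 had median intensities of 38366 to 54707 in the APPswe/PS1dE9 channel, against 7089 to 9484 in the WT channel. On replicate 4, with the same dyes, they had 21844 to 32564 in the APPswe/PS1dE9 channel, against 6694 to 9744 in the WT channel. With the dyes the other way, replicate 1 had 10505 to 14408 in the APPswe/PS1dE9 channel, against 14244 to 22032 in the WT channel. At every Prnp spot of replicates 1 and 2 the APPswe/PS1dE9 channel was the dimmer one. A gap between uncorrected channels therefore holds the dye as well as the genotype.

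**Figure D2:**
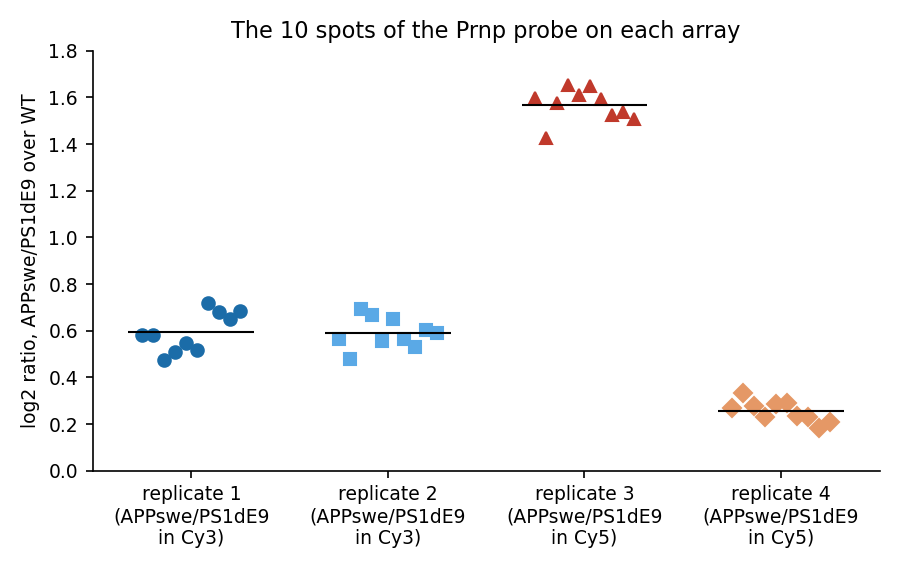
Log2 ratio of APPswe/PS1dE9 over WT (vertical axis) for each of the 10 Prnp spots on each array, with the mean as a line. All 10 spots of replicate 3 lie above 1.4, and no spot of another array reaches 0.8.

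The gap of 1.31 between replicates 3 and 4, which share a dye orientation, was larger for Prnp than for 99.9% of all probes, where the median gap was 0.15. On replicates 1 and 2 the Prnp ratios differed by 0.005. Without replicate 3 the fitted ratio fell to 0.42 (adjusted p = 0.0881), and without replicate 4 it was 1.08 (adjusted p = 0.0256). It passed as well without replicate 1 (0.75, adjusted p = 0.0110), without replicate 2 (0.75, adjusted p = 0.0136), with an intensity trend in the variance (adjusted p = 0.0473) and with median centring (0.57, adjusted p = 0.000214). On the same-sex arrays the ratio was 0.42 (adjusted p = 0.298, limma on 2 arrays). Replicate 3 was among the arrays whose cultures differed in sex, and so was replicate 1, where Prnp was at 0.59. In the fits with 1 array left out, the array alone in its dye orientation adds nothing to a probe's own spread. Without replicate 3 or 4 that spread comes from replicates 1 and 2. Without replicate 1 or 2 it comes from replicates 3 and 4.

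Psen2, on chromosome 1, encodes presenilin 2, a catalytic subunit of gamma-secretase. Its log2 signal was 10.31, 10.31, 10.31 and 10.08 in APPswe/PS1dE9 cultures, against 10.11, 10.14, 9.78 and 9.70 in WT cultures. The groups overlapped, since the APPswe/PS1dE9 culture of replicate 4 was below the WT cultures of replicates 1 and 2, but within each array the APPswe/PS1dE9 culture was higher. The ratios were 0.19 and 0.17 on replicates 1 and 2 and 0.53 and 0.38 on replicates 3 and 4, with a 95% interval of 0.16 to 0.47. Psen2 kept its call in 7 of 17 alternative settings, with adjusted p between 0.0198 and 0.497. Leaving out replicate 3 ended the call (0.28, adjusted p = 0.159), as did leaving out replicate 4 (0.36, adjusted p = 0.128). The fit without a dye term gave adjusted p = 0.0762, median centring gave 0.19 (adjusted p = 0.276), and the same-sex arrays gave 0.28 (adjusted p = 0.497).

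Aplp2, on chromosome 9, encodes the APP relative found in most tissues. Its log2 signal was 13.31, 13.23, 13.44 and 13.36 in APPswe/PS1dE9 cultures, against 13.23, 13.12, 12.96 and 13.11 in WT cultures. The groups did not overlap, a separation upwards found in 7.20% of all probes. The closest values, replicate 2 of APPswe/PS1dE9 at 13.234 and replicate 1 of WT at 13.232, were nearly equal. Its ratios were 0.07 and 0.11 on replicates 1 and 2 and 0.48 and 0.26 on replicates 3 and 4, and the 95% interval was 0.06 to 0.39. Aplp2 passed in 0 of 17 alternative settings, with adjusted p between 0.0545 and 0.805 in limma, and its unadjusted p in the fit reported above was 0.0143. With median centring its ratio was 0.06.

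App is on chromosome 16. The files give the accession of the App probe and not the stretch of the transcript it reads, so its value does not check whether the APP transgene was expressed, and the same holds for the Prnp probe and transcripts made from the Prnp promoter. The log2 signal of App was 13.70, 13.75, 13.54 and 13.57 in APPswe/PS1dE9 cultures, against 13.47, 13.48, 13.54 and 13.60 in WT cultures. The groups overlapped. On replicates 1 and 2 the APPswe/PS1dE9 culture was higher, at ratios of 0.23 and 0.27, and on replicates 3 and 4 the ratios were 0.00 and -0.03. The 2 spots of App had a spread of at most 0.10 on an array. The 95% interval, not adjusted for the number of probes, was -0.03 to 0.26, so an increase above 1.20-fold lay outside it. This limit belongs to the fit with a dye term, where the SE was 0.06, against 0.08 without that term. With median centring the sign turned (-0.06, adjusted p = 0.781), where the median of all probes was -0.07.

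Aplp1, on chromosome 7, encodes the APP relative of the nervous system. Its log2 signal was 13.35, 13.40, 13.36 and 13.38 in APPswe/PS1dE9 cultures, against 13.19, 13.34, 13.26 and 13.57 in WT cultures. The APPswe/PS1dE9 values lay within the range of the WT values. The ratios were 0.17, 0.06, 0.11 and -0.19, and the 95% interval was -0.15 to 0.22. The sign turned without replicate 3 (-0.04), with median centring (-0.14) and on the same-sex arrays (-0.06).

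**Figure D3:**
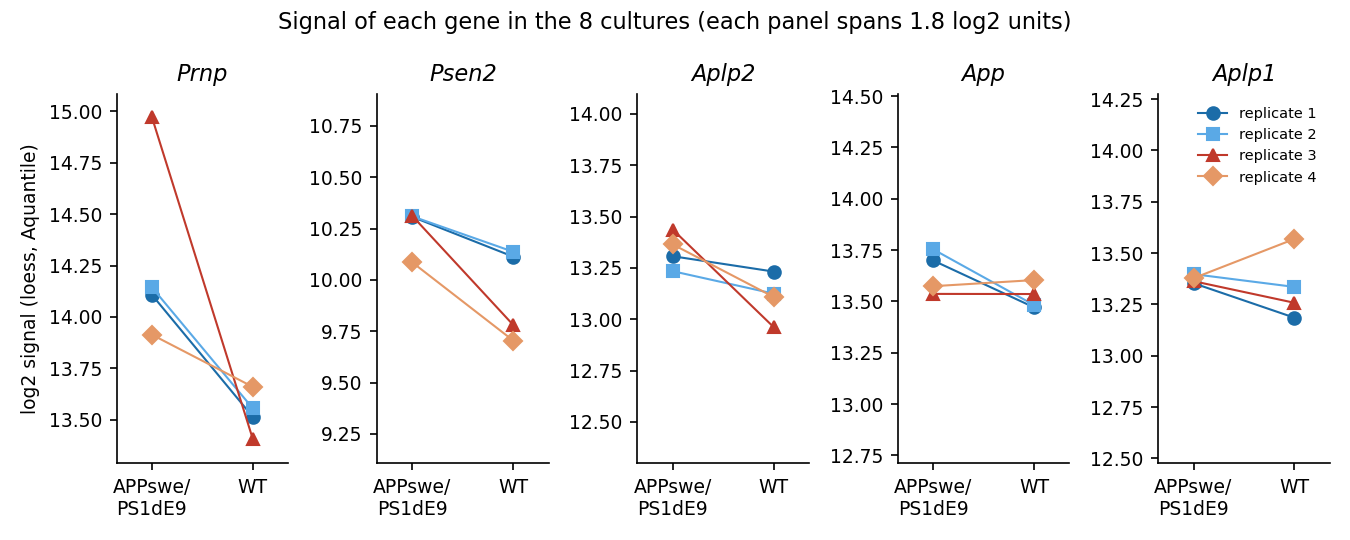
Normalised log2 signal (vertical axis, each panel spanning 1.8 log2 units) of the 5 genes in APPswe/PS1dE9 cultures, left, and WT cultures, right, with a line joining the cultures of 1 array. Prnp and Aplp2 show no overlap between the genotypes, a separation upwards found in 7.20% of all probes. The line of replicate 3 is the steepest for Prnp.

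The genes differed in how the dye orientations compared. Prnp, Psen2 and Aplp2 averaged 0.91, 0.46 and 0.37 on the arrays with APPswe/PS1dE9 in Cy5, and 0.59, 0.18 and 0.09 on those with it in Cy3. For Prnp this order rests on replicate 3, since replicate 4, also in Cy5, was at 0.25 and below both Cy3 arrays. App ran the other way, at -0.01 in Cy5 and 0.25 in Cy3, as did Aplp1, at -0.04 and 0.12. The fitted dye term, the Cy5 over Cy3 ratio common to both genotypes, was 0.16, 0.14 and 0.14 for Prnp, Psen2 and Aplp2, and -0.13 and -0.08 for App and Aplp1. Its adjusted p was between 0.374 and 0.716 in limma. Over all 26882 probes 0 dye terms passed (0.00%), and 3938 had an unadjusted p under 0.05.

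Genes that act on APP or the prion protein were described through 4 lists. Of 43 different genes measured in them, 2 were higher and 0 lower, in a limma fit with 1 probe for each gene. In that fit 11.0% of 13658 named genes were higher and 2.58% lower, and their median log2 ratio was 0.01. The genes of these lists that are named without having passed, other than Bace1 and Adam10, were chosen after their values were seen.

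Among secretase genes, 1 of 8 measured was higher and 7 did not pass, with a median of 0.06. Bace2, a homologue of the beta-secretase gene, was higher at 0.64 ± 0.11 (adjusted p = 0.0175), with 0.15, 0.70, 0.70 and 1.01 on the 4 arrays. Its ratio was lowest on replicate 1, and its dimmer probe was at 0.19 ± 0.11 and did not pass (adjusted p = 0.359 in the fit on all probes). Bace1, the beta-secretase of neurons, was at -0.01 ± 0.06, and Adam10, the main alpha-secretase of neurons, was at -0.11 ± 0.06. The gamma-secretase genes Psenen (0.08), Aph1a (0.06) and Aph1b (-0.20) did not pass either. The brighter probe of Aph1b and its dimmer one, at 0.16, had opposite signs. Aph1c was not matched to a probe by accession, and Ncstn was not above background on enough arrays to be tested.

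Adaptors that bind the cytoplasmic tail of APP gave 0 of 13 higher and 0 lower, with a median of 0.05. Numb was at 0.41 ± 0.23, where replicate 2 was at 1.41 and the other arrays between -0.11 and 0.22. Apbb1, which encodes Fe65, was at 0.16 ± 0.08, and Apba1, which encodes Mint1, at 0.08 ± 0.06. In the other direction Nae1 was at -0.20 ± 0.08. In Dab1, which has 4 probes, the brightest was at -0.12 and the others between 0.06 and 0.27, and none passed. Receptors and sorting factors for APP gave 0 of 14 higher and 0 lower, with a median of -0.05. The sorting receptor Sorl1 was at 0.21 ± 0.08 and the endocytic receptor Lrp1 at 0.23 ± 0.10. On the negative side Lrp8 was at -0.24 ± 0.08, with its dimmer probe at -0.19, and Rtn4 was at -0.17 ± 0.07.

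In the list of prion family and partner genes 1 of 9 was higher and 0 lower, with a median of -0.04. Adgrg6, a receptor that the prion protein activates on Schwann cells, was the gene that rose (0.69 ± 0.07, adjusted p = 0.00271), with 0.74, 0.50, 0.78 and 0.75 on the 4 arrays. Prnd, the neighbouring gene that encodes doppel, was at 0.01 ± 0.06, with -0.19 and -0.16 on replicates 1 and 2 and 0.29 and 0.10 on replicates 3 and 4. Sprn, which encodes shadoo, was at 0.24 ± 0.07 (adjusted p = 0.0740). Both were highest on replicate 3, where Sprn was at 0.38, against 1.57 for Prnp. Ncam1 was at -0.21 ± 0.09, with its dimmer probes at 0.07 and 0.11, and Fyn was at -0.15 ± 0.06.

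**Figure D4:**
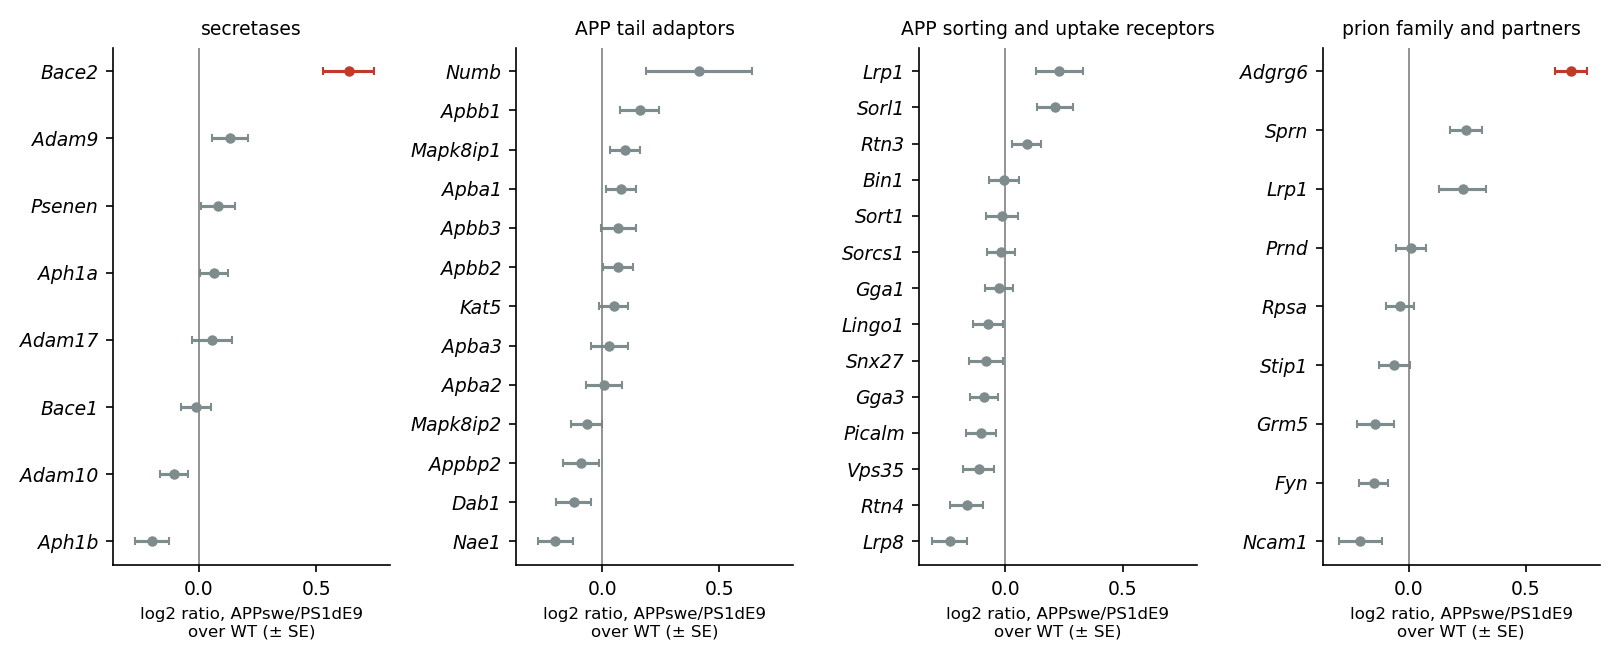
Fitted log2 ratio of APPswe/PS1dE9 over WT (horizontal axis, with SE as bars) for the measured genes of 4 lists, 1 probe for each gene. Red points passed the test, which are Bace2 and Adgrg6, and grey points did not.

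Markers of several cell types differed between the genotypes on the same arrays. In these bulk cultures a change in the number of cells of a type and a change in RNA per cell cannot be told apart. Of 10 astrocyte markers 6 were higher and 0 lower, with a summed signal of 142689 to 157636 in APPswe/PS1dE9 and 103655 to 126600 in WT cultures. Gfap was at 0.69 and Aqp4 at 0.73. Of 11 microglia markers 10 were higher and 0 lower, with a median log2 ratio of 2.07. C1qa, Tmem119, Trem2 and Tyrobp were well above background in WT on 1 of 4 arrays and Cx3cr1 on 2. These were kept through the APPswe/PS1dE9 channel, so their WT values lay near background and the filter favoured a higher call. Of the markers that were higher, Aif1, C1qb, C1qc, Csf1r and Fcer1g were well above background on 4 of 4 arrays in both genotypes. Their ratios were 2.22, 1.39, 2.07, 0.95 and 2.23. The summed signal of the 10 with a value on every array was 12285 to 16333 in APPswe/PS1dE9 and 8759 to 10839 in WT. Itgam, the marker that did not pass (0.11), made up 59.4% to 65% of that sum in APPswe/PS1dE9 and 79.5% to 83.8% in WT. Without it, a choice made after seeing the data, the sums were 4845 to 5709 in APPswe/PS1dE9 and 1634 to 1794 in WT. Aif1 was at 2.22 and Cx3cr1 at 2.31, and Ptprc and P2ry12 were not above background on enough arrays to be tested.

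Neuronal markers gave 3 higher and 4 lower of 15, with summed signals of 144434 to 167299 in APPswe/PS1dE9 and 158659 to 183743 in WT. Tubb3 was at -0.13 and Map2 at -0.31, and neither passed. Of 11 oligodendrocyte lineage markers 0 passed, with sums of 76671 to 89423 in APPswe/PS1dE9 and 65119 to 88710 in WT, Olig1 at -0.06 and Olig2 at -0.21. All 6 choroid plexus and ependyma markers measured were higher in the fit with 1 probe for each gene, with sums of 7563 to 11806 in APPswe/PS1dE9 and 4246 to 5487 in WT, Ttr at 1.06 and Foxj1 at 1.15.

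On replicate 3, the array of the high Prnp value, the summed signals of APPswe/PS1dE9 over WT stood at 1.43 for astrocytes, 1.04 for neurons and 0.96 for the oligodendrocyte lineage. On replicate 4 they stood at 1.38, 0.86 and 1.18 for the same lists. For microglia they stood at 1.87 on replicate 3 and 1.42 on replicate 4 with Itgam, and at 3.18 and 3.17 without it. The part of cell makeup in the ratios of Prnp, Psen2 and Aplp2 was not tested.

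Of the remaining lists, 3 of 8 neural progenitor markers were higher and 1 lower, with Nes at 0.55 and Sox2 at -0.12. Of 5 fibroblast and mural cell markers 2 were lower, with Col1a1 at -0.03 and Col1a2 at -0.15. Of the lower ones, Lum (-0.62) was well above background on 4 of 4 arrays in WT and 1 in APPswe/PS1dE9, so WT alone kept it. Of 3 endothelial markers measured 1 was higher, with Pecam1 at 0.17 and Cldn5 not above background on enough arrays. The higher one, Flt1 (0.40), was well above background on 0 arrays in WT and 3 in APPswe/PS1dE9, so APPswe/PS1dE9 alone kept it.

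Over the 8 cultures, with each dye's mean taken out of the log2 signals, the named genes with the most similar pattern were found by Pearson correlation. With 8 cultures that share 4 arrays, high values are common, and these are given as descriptions. For App they were Faim2 (0.99), Rph3a (0.98) and Rasl11b (0.98), and 234 of 13622 genes were above 0.9. For Psen2 they were Timp2 (0.99), Wipi1 (0.98) and Zrsr1 (0.98), with 194 genes above 0.9. For Aplp2 they were Pgm1, Jund and Wdr63, with 295 above 0.9, and for Aplp1 they were Disc1, Pde4a and Pgk1, with 22 above 0.9. For Prnp they were Mpv17 (0.97), Clip3 (0.97) and Ap2a1 (0.96), with 39 above 0.9. The ratio of Mpv17 was 0.55 on replicate 3 and 0.16 to 0.20 on the other arrays, so replicate 3 was highest for it as for Prnp, while replicate 4, the lowest for Prnp, was not the lowest for Mpv17. Of these 15 genes, Wdr63, Timp2, Jund, Rph3a, Faim2 and Rasl11b were higher in limma's fit, with adjusted p between 0.00733 and 0.0456. Among all named genes 11.0% were higher. The 15 were picked for likeness to the members over the same signals of both genotypes, so these calls are not independent of that choice.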

How the data were processed

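RNA from 4 APPswe/PS1dE9 and 4 WT cultures was hybridised in pairs to 4 Agilent 2-colour arrays, 100 ng per labelling, with the dyes exchanged on replicates 3 and 4. Per the file headers, the authors scanned and extracted the arrays with Feature Extraction 11.0.1.1, on a design annotated to mm9. The deposited intensity values are the median foreground and background signals of each spot, not yet normalised. The authors' log10 ratios and processed signals in the same files served as an alternative. The deposited value table is on a log2 scale with no centring: set against the arrays, its columns run as APPswe/PS1dE9 over WT, and their medians were -0.0797, -0.155, -0.0373 and -0.0378.

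Background was corrected with normexp (offset 50) in limma 3.58.1 on R 4.3.3, and ratios were normalised by loess within arrays, with control and outlier spots at weight 0. Replicate spots were averaged. Probes were kept where over 50% of their spots were well above background in a genotype's channel on at least 3 of 4 arrays, which left 26882 of 55681 probes. lmFit and eBayes were run with a genotype term and a dye term, and two-sided p-values were adjusted by Benjamini-Hochberg over all probes kept, with a threshold of 0.05. Signals for single cultures were further scaled with Aquantile. Accessions of 27509 probes were matched to RefSeq symbols. For gene lists, the probe of highest mean intensity stood for its gene. Genes were named by these rules: the 5 members, list genes that passed, Bace1 and Adam10, the first 2 markers of a list, and the 3 best correlated genes of each member, plus those said to be chosen after their values were seen. An item named by the same rule is not reported here. The members and lists were chosen with earlier results of these data known. Precision is limited by having 4 arrays. The fit was tested on simulated data with known changes. Promoter sequences are from RefSeq, and probe sequences were not used here. Alternatives covered background correction, scaling, the dye term, the filter, the unit of the test, the variance model, each array left out, the deposited table and the same-sex arrays, the last chosen after seeing the data.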

Additional observations from a re-analysis of the deposited data

Results flagged for a closer look

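The log2 signal of Psen2 in the APPswe/PS1dE9 culture of replicate 4 was 10.08, while the other APPswe/PS1dE9 cultures lay at 10.31, 10.31 and 10.31. Its gap to the nearest of them was 0.98 of the whole range, above Dixon's critical value for a group of 4. The WT culture of the same array was the lowest of the WT cultures for Psen2, at 9.70. Of 19 groups of 4 values examined 1 stood out in this way, and chance alone marks about 1 group in 20.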

How the results depend on the processing

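The number of member probes that passed, 1 as reported, was 0 with the processed signals, with normexp offset 16, without background correction, without the dye term, without a filter, with the deposited table and on the same-sex arrays, and 2 (Psen2 and Prnp) with an intensity trend and robust variances. Leaving out 1 array gave 0 to 2 members, with 0 without replicate 3. The count was 1 with median centring and without replicate 4 too, but the probe was then Prnp and not Psen2. The count over all probes, 2363 as reported, was 982 with processed signals, 1148 without a filter, 984 with the deposited table and 460 on the same-sex arrays. Leaving out 1 array gave 369 to 3556, with 520 without replicate 3, 369 without replicate 4 and 3556 without replicate 1. Psen2 and Prnp kept a positive ratio in 17 of 17 alternatives, as did Aplp2, but in most of these the sign could not turn. Changes to the dye term, the filter, the unit of the test and the variance model left these ratios as they were. Fits on fewer arrays average ratios that were above 0 on every array for these genes. App reversed with median centring (-0.0615), and Aplp1 with median centring (-0.1357), on the same-sex arrays (-0.0644) and without replicate 3 (-0.0379). With 1 array left out, Aplp1 lay between -0.0379 and 0.1102. The median of the APP tail adaptors reversed with processed signals (-0.0015), median centring (-0.0927) and the deposited table (-0.0014), and that of the secretases with median centring (-0.083). In these 3 settings the median of all probes moved as well, to -0.0805, -0.073 and -0.0806, against 0.0059 in the fit reported. A turn of sign there is therefore set against a shifted centre. With median centring App, at -0.0615, lay above -0.073, while Aplp1, the tail adaptors and the secretases lay below it. With processed signals and with the deposited table the tail adaptors lay above the centre. The causes were not tested. Aquantile leaves ratios as they are by construction, so its values equal those reported.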
